A study of Mus musculus with 6 samples.

Results

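The basement membrane is the thin sheet of matrix under epithelia and around vessels, and 10 genes that encode its main proteins were followed here in mouse liver. They are Col4a1 and Col4a2 of type IV collagen, the nidogens Nid1 and Nid2, perlecan (Hspg2), and the laminin chains Lama5, Lamb1, Lamb2, Lamb3 and Lamc1. The genes were chosen by their NASH and steatosis counts, with that contrast in view, and were found by Ensembl identifier as 10 of the 39179 rows of each deposited count file. The livers came from C57BL/6J mice (strain C57BL/6 in the sample labels) fed a high-fat diet (60% of calories as fat) for 21 weeks, starting at an age of 5 weeks. All 6 animals were obese, and haematoxylin and eosin histology sorted them into isolated steatosis (3 libraries) and nonalcoholic steatohepatitis, NASH (3 libraries). The groups are thus classes assigned by histology on 1 diet, with no lean group analysed here. The libraries are taken as separate mice, which the labels give only by implication.

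Laminins are heterotrimers of an alpha, a beta and a gamma chain that polymerise on the cell surface. Type IV collagen, usually 2 alpha-1 chains wound with 1 alpha-2 chain, forms a second network, and nidogens and perlecan link both. The liver sinusoid is unusual in lacking a continuous basement membrane, whereas bile ducts, portal vessels and hepatic arteries have one. Laminin chains and type IV collagen are known to be deposited along the sinusoids when the liver scars.

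Total counts ranged from 13909238 to 18002095 per library, but mitochondrially encoded genes took between 62.0% and 83.9% of them. Between 2185922 and 5149189 counts were left for other genes after removal of mitochondrial genes and 4 loci with rRNA-like sequence. The rRNA-like loci held 22.3% of NASH 3 and 8.96% of steatosis 2, and at most 1.06% of the other libraries. The 10 basement membrane genes together held between 520 and 984 counts per library, so counting error is a large part of the spread for the lower ones. Levels are CPM, counts relative to a library size scaled by TMM, a factor that makes most genes equal between libraries. Levels per length (RPKM) divide CPM by the kilobases of annotated exon, and only these are compared between genes.

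Col4a1 and Col4a2 are encoded head to head on chromosome 8 of GRCm38, at positions 11198423 to 11312826 on the minus strand and 11312805 to 11449287 on the plus strand. Their annotated first exons overlap by 22 bases, shown because both genes start there on opposite strands. Upstream stretches of Nid1, Hspg2 and Lamb3, cut where an annotated UTR begins, are shown beside it so that a nidogen, perlecan and the 1 called laminin gene can be read together. Sequences are those of RefSeq on GRCm38.p6, written 5′ to 3′ on the strand given. Capitals mark the GC box GGGCGG and the CCAAT box, read on both strands.
Col4a1 and Col4a2 shared first bases, chr8:11312805-11312826, plus strand: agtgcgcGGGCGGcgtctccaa
Nid1 upstream, chr13:13437352-13437550, plus strand: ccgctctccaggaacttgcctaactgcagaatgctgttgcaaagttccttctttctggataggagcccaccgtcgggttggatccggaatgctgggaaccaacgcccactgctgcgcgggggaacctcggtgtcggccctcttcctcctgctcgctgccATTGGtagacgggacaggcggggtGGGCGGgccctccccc
Hspg2 upstream, chr4:137468553-137468768, plus strand: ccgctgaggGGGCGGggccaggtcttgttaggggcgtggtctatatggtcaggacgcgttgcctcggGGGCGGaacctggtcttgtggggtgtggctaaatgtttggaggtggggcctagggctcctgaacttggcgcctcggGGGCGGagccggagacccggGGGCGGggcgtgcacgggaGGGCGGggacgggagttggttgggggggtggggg
Lamb3 upstream, chr1:193301744-193301992, plus strand: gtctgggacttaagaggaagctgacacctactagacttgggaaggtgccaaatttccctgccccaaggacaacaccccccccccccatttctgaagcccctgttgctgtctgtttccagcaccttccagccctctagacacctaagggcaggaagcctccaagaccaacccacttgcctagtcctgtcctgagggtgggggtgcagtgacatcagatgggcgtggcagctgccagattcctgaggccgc

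RefSeq windows of 300 bases (250 before a start and 50 after it) were present for 8 of the 10 genes, in 9 windows because Lamb3 has 2 starts. GGGCGG occurred in 6 of the 9 windows and in 35.7% of 32851 windows of all genes. The windows of Col4a1 and Col4a2 overlap and share the GC box printed above, and the 2 Lamb3 windows overlap. The 9 are therefore not separate sequences. The window of Hspg2 held 5 matches and that of Lama5 held 4, while neither Lamb3 window nor that of Lamb2 held any. CCAAT occurred in 4 of the 9 windows against 37.4% of all, the TATA box TATAAA in 0 against 13.6%, and the AP-1 site TGACTCA in 0 against 5.2%. The windows of Col4a1 and Col4a2 had the highest GC contents of the 9, 74.0% and 73.7%. A match is a run of letters and not a bound site.

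The coding sequences show the collagen pattern directly. Glycine codons made up 28.6% of the Col4a1 and 27.6% of the Col4a2 coding sequence, against 7.3% to 9.6% in the other 8 genes. The longest unbroken run of triplets that open with glycine was 40 in Col4a1 and 66 in Col4a2, and no more than 3 in any of the others. No stretch of 50 bases was shared between the longest coding transcripts of any pair of the 10 genes, so a read of 150 bases that matches 1 of these transcripts throughout matches no other.

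Per length, Col4a1 and Lamb3 had the highest means of the 10 genes in steatosis, and the type IV collagen chains in NASH. Mean levels in steatosis were 1.35 ± 0.281 RPKM for Col4a1, 1.16 ± 0.856 for Lamb3, 0.671 ± 0.0904 for Col4a2, 0.617 ± 0.0453 for Hspg2 and 0.592 ± 0.0913 for Lamb2 (SD, n = 3). In NASH they were 1.47 ± 0.0245 RPKM for Col4a2, 1.20 ± 0.0495 for Col4a1, 0.841 ± 0.09 for Hspg2, 0.685 ± 0.316 for Lamb2 and 0.556 ± 0.142 for Lama5 (SD, n = 3). In steatosis the values of Lamb3 spanned those of Col4a1, Col4a2, Hspg2 and Lamb2, so its place in the order is not settled, and the values of Lamb2 overlapped with those of Col4a2 and Hspg2. In NASH every Col4a2 value lay above every Col4a1 value, and Lamb2 overlapped with Hspg2 and Lama5. The other chains were lower, with means between 0.0636 (Nid2 in steatosis) and 0.453 RPKM (Lama5 in steatosis). In bulk liver, fewer cells of a type and less RNA per cell cannot be told apart.

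The comparison of NASH with steatosis asks how the expression of the sheet's components differs between livers with inflammation and injury and those with fat alone. In edgeR's quasi-likelihood fit of 11375 genes, with p-values adjusted by Benjamini and Hochberg, Col4a2 and Nid2 were called higher in NASH and Lamb3 lower, at an adjusted p under 0.05. The other 7 genes were not called. Over all tested genes 4.82% were called, 1.49% higher and 3.33% lower. All 10 genes passed the filter on low counts. The set was chosen with this contrast in view, so its values are a description and nothing is read from the number called. The median log2 fold change was 0.26 over the 10 genes and 0.01 over all tested genes. NASH lay wholly above steatosis for Col4a2, Nid2 and Hspg2 and wholly below for Lamb3. Among all tested genes 29.3% did not overlap, 13.1% with NASH above and 16.2% with NASH below.

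**Figure D1:**
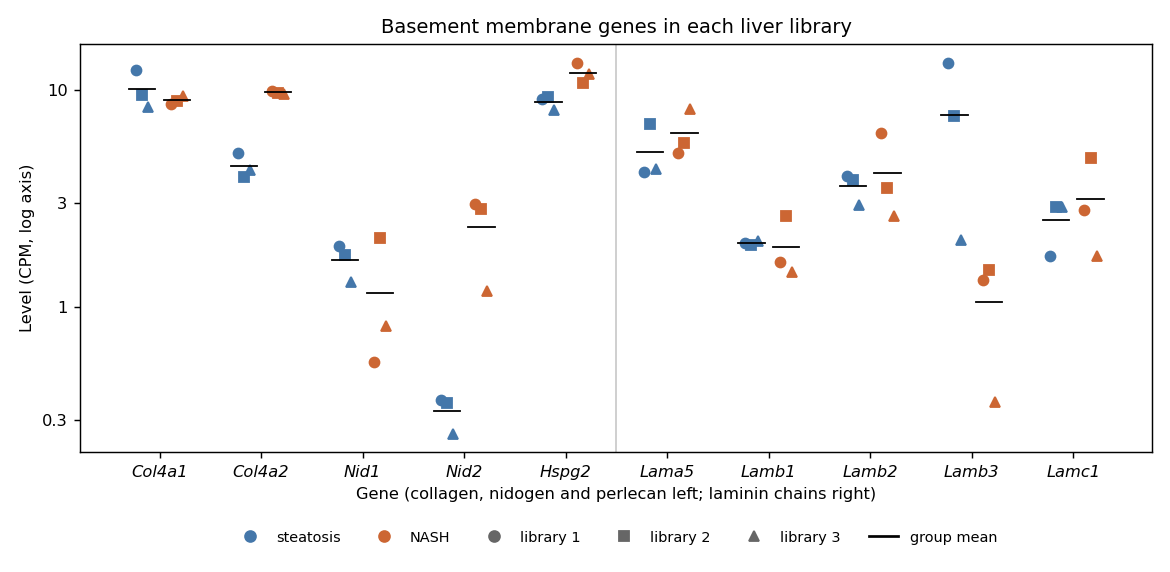
Level of each of the 10 genes (CPM, log axis) in the 3 steatosis (blue) and 3 NASH (orange) libraries, with symbols for library number and a line at the group mean. Col4a2 and Nid2 are higher in every NASH library, Lamb3 is lower in every one, and Col4a1 overlaps between 8.38 and 12.4 CPM.

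Col4a2, the alpha-2 chain of type IV collagen, was higher in NASH. It stood at 5.11, 3.95 and 4.26 CPM in steatosis 1, 2 and 3 and at 9.93, 9.70 and 9.61 CPM in NASH 1, 2 and 3. The NASH libraries differed from each other by far less than they did from any steatosis library. The log2 fold change was 1.14 (SE 0.19), a 2.20-fold difference. The call was lost without steatosis 2 and in the 4 libraries with few rRNA-like reads, where the log2 fold change was 1.06 and 1.07.

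Col4a1, the alpha-1 chain that shares its start region with Col4a2, did not move with it. It stood at 12.4, 9.46 and 8.38 CPM in steatosis and at 8.61, 8.90 and 9.34 CPM in NASH. The NASH values lay inside the steatosis range, and steatosis 1 was the highest of all. The log2 fold change was -0.17 (SE 0.20).

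The pair can be compared inside each library, where scaling between libraries has no part. Of the counts of both genes, Col4a2 took 29.1% in steatosis 1 (95% exact Clopper-Pearson interval 23.9 to 34.8), 29.5% in steatosis 2 (23.6 to 35.9) and 33.7% in steatosis 3 (28.7 to 39.0). It took 53.6% in NASH 1 (47.4 to 59.7), 52.2% in NASH 2 (46.1 to 58.2) and 50.7% in NASH 3 (43.7 to 57.7). The intervals of the groups did not overlap, and the mean share was 30.8% ± 2.56 for steatosis against 52.1% ± 1.42 for NASH (SD, n = 3 each). These intervals cover counting error only, since reads without molecular identifiers are not independent molecules. The pair was chosen with this contrast in view, so the separation is a description. Per length, the ratio of Col4a2 to Col4a1 was between 0.463 and 0.574 in steatosis and between 1.16 and 1.30 in NASH. Together the chains summed to 2.02 ± 0.362 RPKM across steatosis and 2.67 ± 0.0282 RPKM across NASH libraries (SD, n = 3 each).

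**Figure D2:**
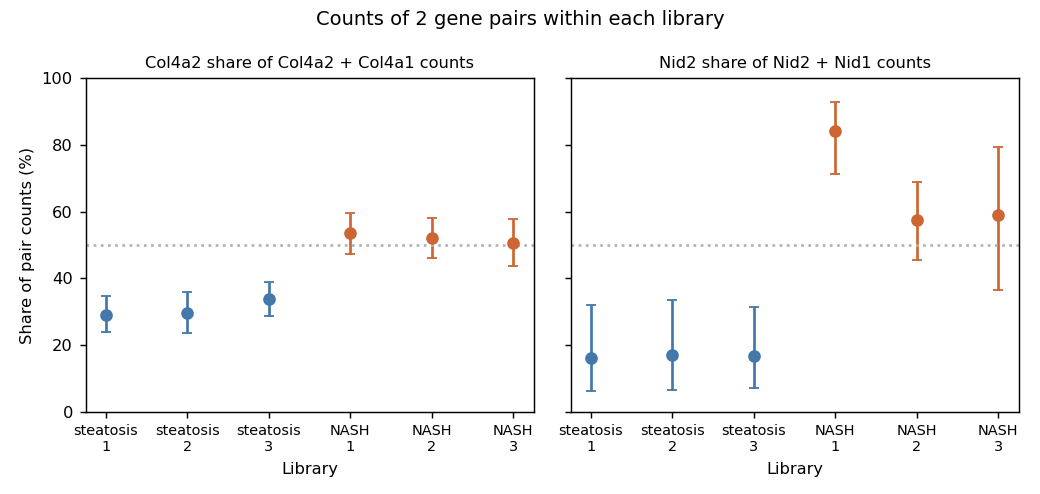
Share of the pair's counts taken by Col4a2 (left, with Col4a1) and by Nid2 (right, with Nid1) in each library, with 95% exact binomial intervals and a dotted line at 50%. Col4a2 takes 29.1% to 33.7% in steatosis and 50.7% to 53.6% in NASH, and Nid2 16.2% to 17.1% and 57.5% to 84.3%.

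The nidogens, which bridge laminin to type IV collagen, also parted. Nid2 lies on chromosome 14, positions 19751265 to 19811787. Its counts were 6, 6 and 7 for the steatosis libraries and 43, 42 and 13 for NASH 1, 2 and 3, or 0.369, 0.359 and 0.259 CPM against 2.98, 2.81 and 1.18 CPM. NASH 3 was the lowest NASH library and still above every steatosis value. The log2 fold change was 2.85 (SE 0.45), a 7.20-fold difference resting on 19 counts in all of steatosis and 98 in NASH. The last 437 bases of Nid2 are exon of Rtraf on the opposite strand, and strand use in counting is not given in the sources used here. Rtraf stood between 3.41 and 4.61 CPM in steatosis and between 2.41 and 3.47 CPM in NASH (log2 fold change -0.46, edgeR adjusted p = 0.281). Any part of Rtraf reads in the Nid2 counts was not tested.

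Nid1, on chromosome 13, positions 13437551 to 13512269, held 1.91, 1.74 and 1.30 CPM in steatosis and 0.555, 2.07 and 0.816 CPM in NASH. NASH 2 was the highest of all 6 libraries, while NASH 1 and NASH 3 lay below every steatosis value. The log2 fold change was -0.48 (SE 0.45) over all libraries and -1.25 without NASH 2. Of the counts of both nidogens Nid2 took 16.7% ± 0.463 across steatosis and 67.0% ± 15 across NASH libraries (SD, n = 3 each). The share was 84.3% in NASH 1 (interval 71.4 to 93.0), 57.5% in NASH 2 (45.4 to 69.0) and 59.1% in NASH 3 (36.4 to 79.3). The highest upper limit in steatosis was 33.6%, below each of these lower limits. These intervals cover counting error inside a library and not the spread between libraries. Nid2 was chosen with this contrast in view and passed the filter on low counts only through its NASH libraries. The separation is thus a description.

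Hspg2 encodes perlecan, a large heparan sulfate proteoglycan, on chromosome 4, positions 137468769 to 137570630. It stood at 9.11, 9.28 and 8.08 CPM in steatosis and at 13.4, 10.8 and 11.9 CPM in NASH. Every NASH library was above every steatosis library, with NASH 2 nearest to them. The log2 fold change of 0.45 (SE 0.18) was not called.

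Lamb3, the beta-3 chain found with alpha-3 in the laminin of epithelial attachment sites, was the only laminin chain of the 5 that was called. It stood at 13.4, 7.60 and 2.04 CPM in steatosis 1, 2 and 3 (217, 127 and 55 counts) and at 1.32, 1.47 and 0.363 CPM in NASH 1, 2 and 3 (19, 22 and 4 counts). The steatosis libraries spread widely, and steatosis 3 lay close to NASH 2. The log2 fold change was -2.78 (SE 0.65). The call was lost with limma-voom, in the 4 libraries with few rRNA-like reads, and when steatosis 1, steatosis 2 or any 1 NASH library was left out. Without steatosis 1 the log2 fold change was -2.10.

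The position of Lamb3 bears on how its counts are read. In GENCODE M21 the gene spans chromosome 1, positions 193207699 to 193343878, because some transcripts start far upstream, and this span encloses G0s2 and overlaps Hsd11b1 on the opposite strand. No exon of Lamb3 overlaps an exon of either, though 1 lies 120 bases from the start of G0s2. G0s2, an inhibitor of the lipase ATGL, stood at 252, 160 and 89.6 CPM in steatosis and 118, 283 and 30.0 CPM in NASH (log2 fold change -0.22, edgeR adjusted p = 0.877). Hsd11b1, which regenerates active glucocorticoid, stood between 98.5 and 104 CPM in steatosis and between 75.2 and 94.5 CPM in NASH (log2 fold change -0.23, edgeR adjusted p = 0.544). Within steatosis and within NASH, G0s2 ranked the libraries in the same order as Lamb3. Across the groups the order differed, since NASH 2, with the highest G0s2, had 1.47 CPM of Lamb3. Any part of reads from these neighbours in the Lamb3 counts was not tested.

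Lamb1 and Lamb2, the beta chains of most laminins, showed no such difference. Lamb1 stood at 1.97, 1.92 and 2 CPM in steatosis and 1.60, 2.61 and 1.45 CPM in NASH, a log2 fold change of -0.04 (SE 0.30). Its steatosis values were nearly equal and lay inside the NASH range. Lamb2, which replaces beta-1 in vessel walls and at synapses, stood at 4, 3.83 and 2.96 CPM in steatosis and 6.32, 3.54 and 2.63 CPM in NASH (log2 fold change 0.23, SE 0.31). NASH 1 was the highest and NASH 3 the lowest of the 6.

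The make-up of the beta chains therefore differed between libraries mainly by Lamb3. Per length, Lamb3 made up 70.2%, 58.3% and 30.9% of the 3 beta chains in steatosis and 14.3%, 20.8% and 8.66% in NASH. Lamb2 made up 22.9%, 31.9% and 48.9% in steatosis and 74.2%, 54.6% and 68.2% in NASH. Lamb2 was the most abundant beta chain in every NASH library and in steatosis 3, and Lamb3 was the most abundant in steatosis 1 and 2.

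**Figure D3:**
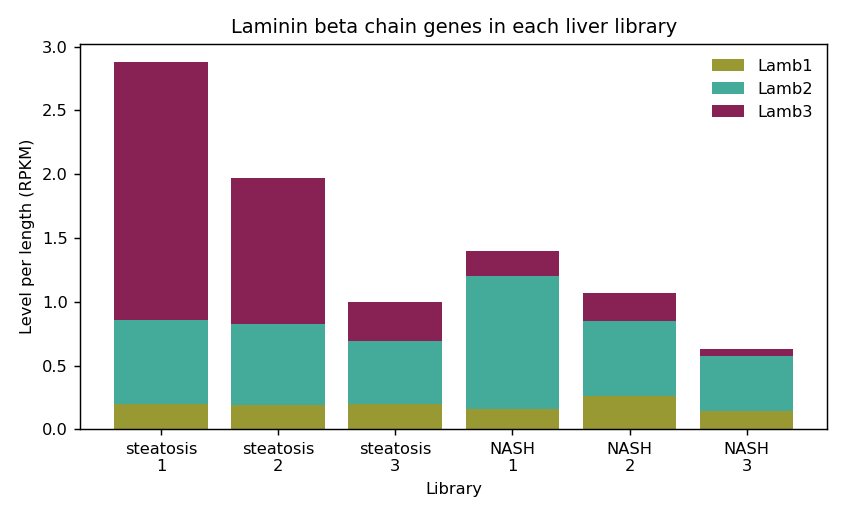
Levels per length (RPKM) of Lamb1, Lamb2 and Lamb3, stacked, in each of the 6 libraries. Lamb3 is the largest segment in steatosis 1 and 2 and the total ranges from 0.634 in NASH 3 to 2.88 in steatosis 1.

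The alpha and gamma chains overlapped between groups. Lama5, the alpha chain typical of mature vessels and epithelia, stood at 4.18, 7 and 4.30 CPM in steatosis and 5.14, 5.69 and 8.16 CPM in NASH (log2 fold change 0.29, SE 0.27). Steatosis 2 and NASH 3, which held the most rRNA-like reads, had the highest Lama5 of their groups, and the part of those reads in this was not tested. Lamc1, the gamma chain of most laminins, stood at 1.72, 2.87 and 2.89 CPM in steatosis and 2.78, 4.88 and 1.72 CPM in NASH (log2 fold change 0.33, SE 0.37). NASH 2 was the highest and NASH 3 among the lowest. Lamb1, Lamc1 and Nid1 all had their highest value in NASH 2.

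**Figure D4:**
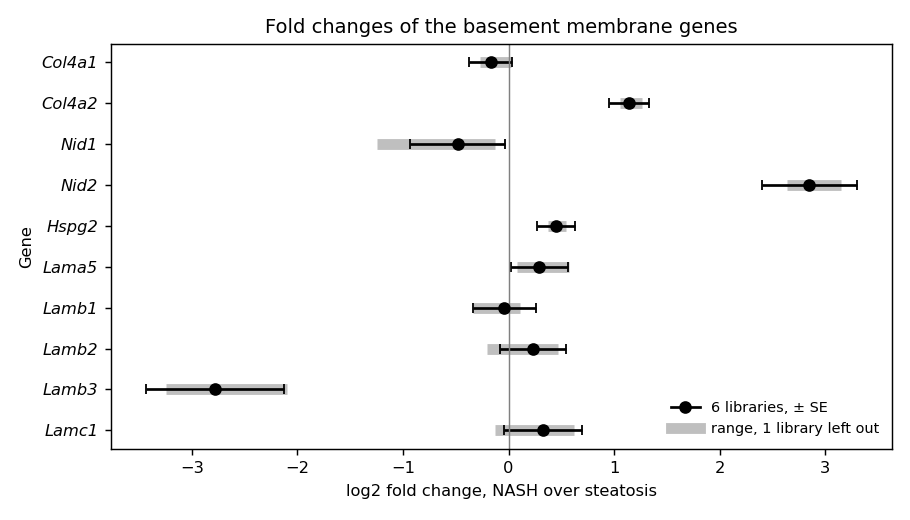
Log2 fold change of NASH over steatosis for the 10 genes, with points and bars for the estimate from 6 libraries ± SE and grey bands for the range when 1 library is left out. Nid2 and Col4a2 stay above 0, Lamb3 stays between -3.24 and -2.10, and the bands of Col4a1, Lamb1, Lamb2 and Lamc1 cross 0.

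Other chains that could pair with these genes were low. Lama3, the alpha-3 partner of Lamb3, had 81 counts summed over steatosis and 88 over NASH (log2 fold change 0.69, SE 0.37, edgeR adjusted p = 0.291), so it did not go down with Lamb3. The minor type IV chains Col4a3, Col4a4, Col4a5 and Col4a6 held between 0 and 22 counts per library and were not tested. Col4a5, the highest of them, averaged 0.0955 RPKM over the 6 libraries.

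Of 29 further basement membrane components 16 could be tested, and 0 were called by edgeR (1 higher and 1 lower at an unadjusted p under 0.05). The share of all genes under that unadjusted threshold is not given here. Nothing is therefore read from such counts in this list or in the lists and markers below. Their median log2 fold change was 0.00, against 0.01 over all genes. Col18a1, the type XVIII collagen from which endostatin is cut, was the most abundant by CPM, at 222 to 263 CPM in steatosis and 179 to 233 CPM in NASH, and its mean of 32.1 RPKM exceeded the RPKM of all 10 genes above. Smoc1, a calcium-binding matrix protein, stood between 42.6 and 69.7 CPM in steatosis and 38.7 and 58.2 CPM in NASH. The smallest p values belonged to Smoc2 (log2 fold change -1.13, edgeR adjusted p = 0.121) and Fras1 (log2 fold change 1.26, edgeR adjusted p = 0.178).

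Of 27 listed genes that fold, modify or crosslink collagen, 19 were tested, 1 rose and 0 fell (5 higher and 1 lower at an unadjusted p under 0.05), with a median log2 fold change of 0.26. The 1 was Pxdn, peroxidasin, which makes the sulfilimine bonds that join type IV collagen trimers. It went from 2.77, 1.86 and 2.11 CPM in steatosis to 5.55, 4.41 and 3.72 CPM in NASH, with no overlap (log2 fold change 1.03, SE 0.26, edgeR adjusted p = 0.0484). The call sat at the edge of the threshold and was lost without any 1 of the 6 libraries, with the replicate block (edgeR adjusted p = 0.0562) and in the 4 libraries with few rRNA-like reads, the adjusted p ranging from 0.0103 to 0.178 over 15 alternatives. P4hb, the protein disulfide isomerase of prolyl hydroxylase, stood at 176 to 183 CPM in steatosis and 182 to 234 CPM in NASH (edgeR adjusted p = 0.543). Mia2, which helps export bulky cargo from the endoplasmic reticulum, had a log2 fold change of -0.07.

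Receptors for the sheet did not pass. Of 21 laminin and collagen receptor genes 19 were tested and 0 were called by edgeR (2 higher and 1 lower at an unadjusted p under 0.05), with a median log2 fold change of 0.03. Itga3, an integrin subunit that binds laminins, stood at a log2 fold change of 0.82 with an edgeR adjusted p of 0.112, and Rpsa, which encodes both a ribosomal protein and a laminin receptor, at -0.72 with one of 0.0883. Tln1, the talin that couples integrins to actin, stood at 0.51 (edgeR adjusted p = 0.175) and the syndecan Sdc4 at 0.18. Ilk, a kinase used by most cells, was listed at 0 in every library, so its count says nothing of its level.

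Of 24 proteases and inhibitors that act on the sheet 17 were tested, and 0 were called by edgeR (1 higher and 3 lower at an unadjusted p under 0.05). Adamts9, a protease, stood at a log2 fold change of 1.20 with an edgeR adjusted p of 0.0973. Timp2, an inhibitor of matrix metalloproteinases, stood at -1.12 (edgeR adjusted p = 0.102). Fibrillar and interstitial matrix, the other collagen system of the liver, had 22 of 23 genes tested, with 1 higher and 1 lower (2 and 4 at an unadjusted p under 0.05) and a median of -0.14. Col5a3, a minor fibril collagen, went from 74.7, 78.4 and 58.9 CPM to 203, 129 and 121 CPM (log2 fold change 1.10, SE 0.26, edgeR adjusted p = 0.0455). Dcn, the small proteoglycan decorin, went from 23.6, 22.0 and 23.6 CPM to 13.5, 7.62 and 12.9 CPM (log2 fold change -1.03, SE 0.23, edgeR adjusted p = 0.0349). Both calls were lost without any 1 of the 6 libraries and in the 4 libraries with few rRNA-like reads.

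Markers of cells that lay down these proteins were summed per library, and the sums overlapped between groups in some lists and not in others. The 12 vascular endothelial markers summed to 64.1 to 85.2 CPM in steatosis and 86.9 to 116 CPM in NASH, above in each NASH library, as were Col4a2, Nid2 and Hspg2. Eng led this sum and itself overlapped, at 23.8 to 32.4 CPM in steatosis and 27.7 to 51.2 CPM in NASH. The 13 sinusoidal endothelial markers summed to 87.8 to 123 CPM and 122 to 167 CPM, overlapping slightly. Of 10 and 12 tested endothelial markers 0 were called by edgeR in either list (2 and 3 higher at an unadjusted p under 0.05), with medians of 0.40 and 0.31. The smallest p values were those of Tie1 and Pecam1 (log2 fold changes 0.63 and 0.60) and of Stab1 and Clec4g (0.76 and 0.81), with edgeR adjusted p = 0.0895, 0.128, 0.0771 and 0.133. Of the markers with the highest CPM, Eng stood at 0.46, Plvap at -0.03 and Stab2 at 0.40, and Lyve1, named after its value was seen, stood at -0.21. None of the markers of either list was at 0 in all libraries. Their part in the differences of Col4a2, Nid2 and Hspg2 was not tested.

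The 12 stellate cell markers summed to 74.3 to 95.9 CPM in steatosis and 73.8 to 85.5 CPM in NASH, and 8 smooth muscle and myofibroblast markers to 62.3 to 74.0 and 61.8 to 69.0 CPM, with 0 genes called by edgeR in either (0 and 2 higher, and 1 each lower, at an unadjusted p under 0.05). The 12 cholangiocyte markers summed to 140 to 199 CPM in steatosis and 110 to 130 CPM in NASH, lower in each NASH library, as was Lamb3. Of 6 tested 1 was called, Krt8 (log2 fold change -1.07, edgeR adjusted p = 0.0488), a keratin that hepatocytes also express, and that call was lost under 8 of 15 alternatives. Among defining duct markers Epcam held 7, 11 and 13 counts in the steatosis libraries and 6, 4 and 4 in NASH. The sum was led by Krt18, at 73.2 to 111 CPM in steatosis and 57.9 to 80.6 CPM in NASH, which hepatocytes express too. The part of duct cells in the Lamb3 values was not tested. Hepatocyte markers, which check the tissue, summed to 11962 to 13325 CPM in steatosis and 10133 to 12470 CPM in NASH, with Alb alone at 4311 CPM or more. The 10 macrophage markers summed to 38.7 to 46.6 and 41.1 to 72.1 CPM, and the 6 mesothelial markers to 1.41 to 7.18 and 1.11 to 4.26 CPM.

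Patterns over the 6 libraries were ranked by Pearson correlation of log2 CPM among 7765 protein-coding genes, as a description in which all points share the same 6 libraries. The genes nearest to Col4a1 were Ifrd1, Sirt3, Ctso, Atf3 and Uox, with correlations from 0.98 to 0.99, and Col4a2 ranked 5002 with a correlation of -0.27. The genes nearest to Col4a2 were Dhcr7, an enzyme of cholesterol synthesis, Nol12, Naa15, Aff1 and Ehbp1, all with correlations of at least 0.99. Ranked in the same way, a choice made after the values were seen, Nid2 lay nearest to Pvr, Sh3glb2, Zfp513, Lss and Aspdh. Col4a2 ranked 107 of 7766 genes for Nid2, with a correlation of 0.94, and both genes were already known to be higher in NASH. Lamb3 lay nearest to H2afv, Phb2, Ube2e2, Arih2 and Psmb2. With 6 libraries many genes reach such correlations.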

How the data were processed

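Liver RNA of 6 mice was sequenced from polyadenylated libraries as pairs of 150 bp reads, per the labels' protocols. Per the submitters' processing notes TopHat2 and HTSeq were used with mm10 (GRCm38); the sources used here do not give versions, annotation release, strand setting or handling of shared reads. Raw counts per gene, not normalized, were deposited. Of 39179 identifiers 37607 were in GENCODE M21 (GRCm38), which gave symbols, positions and exon lengths; overlapping genes on opposite strands could not be separated. Counts were tested in edgeR 4.0.16 (R 4.3.3) with its default filter, TMM and the quasi-likelihood test, called at an adjusted p under 0.05; the SE is the log2 fold change over the square root of F. The script was tested on simulated data. P-values measure the spread between 3 libraries per group. Pairs of libraries of 1 group differed beyond sampling noise (chi-square over degrees of freedom 34 or more).

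Log2 CPM used a prior count of 2. The alternatives were DESeq2 1.42.0, voom of limma 3.58.1, other scalings and filters, the replicate block and left-out libraries. The 10 genes, the lists and the tests were chosen with earlier results of these data known. Named genes were the 10, the called genes of each list (otherwise the 2 with the smallest p), its 2 with the highest CPM, and the 5 nearest patterns among genes whose mean log2 CPM reached 1; some are given by counts only. Genes named for their role in a trimer (Lama3, the minor type IV chains), Epcam and neighbouring genes were added after values were seen. Some genes of the lists are not reported here.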

Additional observations from a re-analysis of the deposited data

How the results depend on the processing

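Of the 10 genes, Nid2 kept its call in each of the 14 alternatives that could test it (log2 fold change 2.64 to 3.22). Under CPM of at least 1 in 3 libraries it was not tested, and the default filter passed it only through its NASH libraries. Col4a2 kept its direction in 15 alternatives (1.06 to 1.26) and lost its call in 2, and Lamb3 kept its direction (-3.24 to -2.10) and lost its call in 7. None of the other 7 gained a call in 15 alternatives each. The sign changed in 1 alternative for Col4a1, Lamb2 and Lamc1 and in 4 for Lamb1. Without 1 library, the number called among the 10 was 1 to 2 higher and 0 to 1 lower. The numbers were 1 higher under the stricter filter, 0 lower with limma-voom, and 1 higher and 0 lower in the 4 libraries with few rRNA-like reads.

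Over all genes 169 were called higher and 379 lower. DESeq2 called 300 higher, no filter 535 higher and 912 lower, and the 4 libraries 17 and 19. Without 1 library the calls ranged from 29 to 170 higher and from 77 to 298 lower. Scaling to other genes without TMM gave 185 higher and 232 lower and moved the median over all genes to 0.12 (log2); Col4a2, Nid2 and Lamb3 stood at 1.25, 2.96 and -2.62 there. The 5 matrix lists, cell type markers left out, had 2 higher and 1 lower, against 0 and 0 without any 1 library and in the 4 libraries, 0 lower with that scaling, and 6 higher and 4 lower without a filter. With the replicate block 1 was higher, Pxdn being lost. Deviations from the group means correlated at 0.0349, -0.0123 and 0.0706 for same-numbered samples. For the other pairs the correlations were -0.098 to 0.0682. Whether samples with the same number shared a preparation was not tested. The block changed no call among the 10 genes, with Col4a2 at 1.14, Nid2 at 2.72 and Lamb3 at -2.79. Fits with fewer libraries have less power by construction, and other causes were not tested. With the longest transcript as length, Col4a2 made up 52.8% of the type IV chains in NASH, against 55.1% with the exon union. At 4 to 22 counts per library, Nid2 in steatosis and Lamb3 in NASH are limited by counting error.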
